A study of Mus musculus with 10 samples.

Results

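The LIM-only proteins and the LIM domain cofactors form a small family of nuclear adaptors, represented here by 6 genes (Lmo1, Lmo2, Lmo3, Lmo4, Ldb1 and Ldb2) of 53801 in the deposited table. They were taken by gene name, and the family was selected on earlier results of the same comparison, in which Ldb2 was 1 of the 24 genes past the threshold. The difference of Ldb2 between the populations is therefore given as a description, without a test. The cells came from the dorsal brain of wild-type (WT) mouse embryos that had received StarTrack, a set of reporter plasmids that marks the progeny of electroporated progenitors, by in utero electroporation at embryonic day 12. They were dissociated and sorted by flow cytometry at embryonic day 14 as NG2+ cells (5 libraries) or GFAP+ cells (5 libraries), and bulk RNA was sequenced. All 10 libraries shared genotype, electroporation and batch 1, and both populations carry the cell type label of neural stem cells. The promoters of the reporters, and whether the libraries came from separate animals, are not stated in the labels. P-values therefore measure the spread between these libraries, which may be technical.

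LIM domains are zinc-binding modules that hold other proteins. An LMO protein consists almost only of a pair of LIM domains and binds no DNA itself, whereas LIM homeodomain factors such as Lhx2 carry the same domains beside a DNA-binding homeodomain. LDB proteins dimerise and bind LIM domains, so they can bridge LIM homeodomain factors, and LMO proteins compete for or redirect the same cofactor. In the developing cortex these genes are known from area patterning and from the identity of projection neurons, and Lmo2 and Ldb1 are also known from blood and endothelial cells.

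The libraries held 14256176 to 17569730 counts for NG2 and 12945436 to 16189859 for GFAP. NG2 replicate 5 had reads for 18903 genes, against 22988 to 24444 in the other NG2 libraries and 23259 to 24208 in the GFAP libraries, and it had the lowest median correlation with the other libraries (0.922 across genes, against 0.972 to 0.981). Cspg4, which encodes NG2, lay at 4.45 to 8.13 CPM (counts scaled to a common library size with TMM factors) in the NG2 group and at 0.691 to 1.54 CPM in the GFAP group. Gfap had 6 reads over all NG2 libraries, against 10 reads over all GFAP libraries, so the transcript that names the GFAP+ cells was close to absent in both. GFAP replicate 2 stood apart in its group, with fewer newborn neuron transcripts and more radial glia transcripts. Neurons were represented in both populations, as the values of Neurod6 and Tubb3 given further on show.

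The promoter sequences of Lmo1, the most abundant LMO gene, and of Lmo3, a related LMO gene at a much lower level, are shown so that both start regions can be compared. They run 5′ to 3′ on the minus strand, from 250 bases before to 50 bases after the annotated start, at chr7:109175158-109175457 and chr6:138581919-138582218 (RefSeq, GRCm38.p6). Capitals mark TAATTA, a core recognised by many homeodomain factors, those of the LIM class included.
Lmo1: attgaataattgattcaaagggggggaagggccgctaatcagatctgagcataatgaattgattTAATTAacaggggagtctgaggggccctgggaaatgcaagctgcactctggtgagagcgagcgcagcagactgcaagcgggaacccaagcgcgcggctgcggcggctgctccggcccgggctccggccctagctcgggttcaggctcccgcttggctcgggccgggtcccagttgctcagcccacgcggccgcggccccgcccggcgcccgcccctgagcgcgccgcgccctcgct
Lmo3: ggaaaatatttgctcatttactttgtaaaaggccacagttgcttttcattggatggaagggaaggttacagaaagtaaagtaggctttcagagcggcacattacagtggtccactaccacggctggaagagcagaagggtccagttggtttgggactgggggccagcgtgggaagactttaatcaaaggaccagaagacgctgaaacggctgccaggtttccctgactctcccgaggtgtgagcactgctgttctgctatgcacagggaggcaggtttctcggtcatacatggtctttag
The Lmo1 sequence held TAATTA once, at bases 65 to 70 of the window, with its first base 186 bases before the start. TAATTA is its own reverse complement, so both strands give the same match, and 5.29% of 32851 promoter windows of this length held it. A window at a second Lmo1 start, which overlaps this one, held the same match, and the Lmo3 window held none. GC content was 66.3% for Lmo1, above the median of 52.7% over all windows, and lay just under that median for Lmo3. The E-box CANNTG, the site class of bHLH factors that join LMO complexes, occurred at 1 position in the Lmo1 window and at 2 positions in the Lmo3 window, and 72.3% of all windows held it (both strands). Lmo4 and Ldb1 had 3 windows each, with 0 TAATTA in all of them and 0 to 1 CANNTG for Lmo4 and 0 to 2 for Ldb1. Their GC content was 72.7% to 81.3% for Lmo4 and 51.0% to 71.3% for Ldb1. Matches are letters in a window and were not tested for use in these cells. Promoter sequences of 4 of the 6 genes were matched, and those of Lmo2 and Ldb2 were not used here.

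All 6 genes are protein-coding. Lmo1 (ENSMUSG00000036111) lies on chromosome 7 at 109138572 to 109175207, Lmo2 (ENSMUSG00000032698) on chromosome 2 at 103957986 to 103981878, Lmo3 (ENSMUSG00000030226) on chromosome 6 at 138362918 to 138581968 and Lmo4 (ENSMUSG00000028266) on chromosome 3 at 144188530 to 144205220. Ldb1 (ENSMUSG00000025223) lies on chromosome 19 at 46032593 to 46045214 and Ldb2 (ENSMUSG00000039706) on chromosome 5 at 44472132 to 44799680. Lmo2 is on the plus strand and the others are on the minus strand (GRCm38). Each overlaps at least 1 other annotated gene. The labels do not state the strand setting of the counting, so reads of overlapping genes cannot be told apart with certainty. The overlapping gene with the most reads was Pprc1 at the 5′ end of Ldb1, on the opposite strand, with 2388 reads over the NG2 libraries, against 2422 over the GFAP libraries.

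Of the cofactors, Ldb2 was higher in the NG2 libraries and Ldb1 stood at nearly the same level in both populations. Ldb2, known as a gene of deep-layer and corticospinal projection neurons, was at 53.7, 68.0, 76.4, 59.5 and 43.4 CPM in NG2 replicates 1 to 5, against 40.7, 30.0, 33.5, 29.7 and 33.9 CPM in GFAP replicates 1 to 5. The groups did not overlap, and the narrowest gap lay between NG2 replicate 5 and GFAP replicate 1. The means were 60.2 ± 12.7 CPM in NG2 libraries, against 33.6 ± 4.45 CPM in GFAP libraries (mean ± SD of 5 libraries each). That is a log2 fold change of 0.84 (SE 0.15, edgeR, NG2 minus GFAP). The authors' deposited table gives a log2 fold change of 0.86. Leaving out each library in turn gave 0.75 to 0.94, and leaving out NG2 replicate 5 and GFAP replicate 2 together gave 0.90. In bulk libraries fewer cells of a type and less RNA per cell cannot be told apart.

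Ldb1, the cofactor used by LIM complexes in most tissues, was at 122, 115, 148, 139.5 and 128.5 CPM in NG2 replicates 1 to 5 and at 140.2, 109.6, 143, 138 and 124 CPM in GFAP replicates 1 to 5. The ranges of the groups largely coincided. Its log2 fold change was -0.0055 (SE 0.10, edgeR, Benjamini-Hochberg adjusted p = 0.989), and the sign turned under 11 of 20 alternatives. Per length, in the deposited FPKM, Ldb2 made up 32.9% ± 4.64 of the summed Ldb1 and Ldb2 level in the NG2 libraries and 21.6% ± 2.11 in the GFAP libraries (mean ± SD of 5 libraries each). The ratio of Ldb2 to Ldb1 FPKM was 0.363 to 0.638 in the NG2 libraries and 0.230 to 0.312 in the GFAP libraries. These ranges did not overlap, and they hold the Ldb2 values by which the family was chosen.

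**Figure D1:**
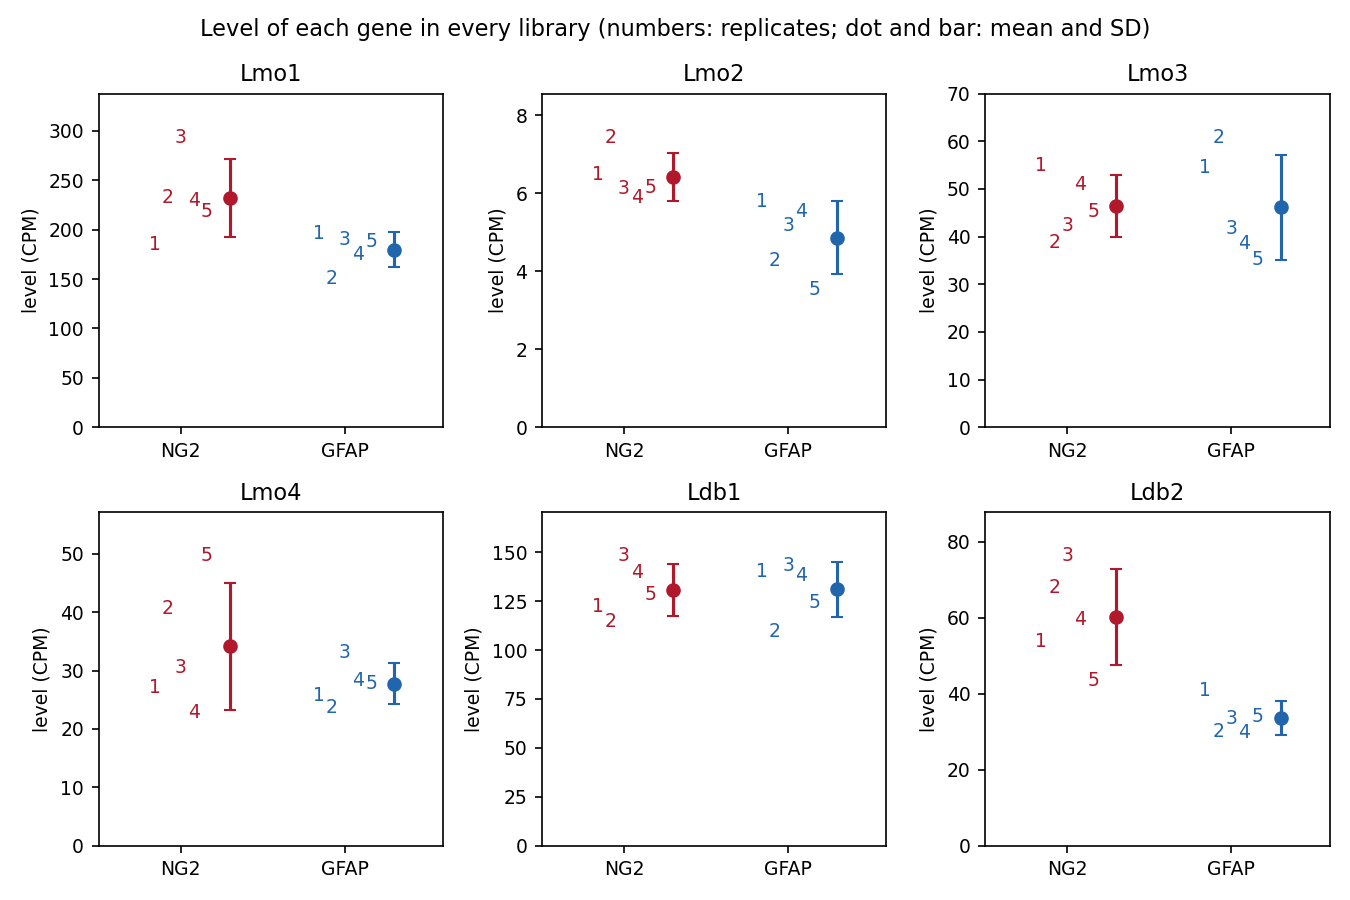
Level of each gene in CPM (vertical axes, each from 0) in the NG2 libraries (red) and the GFAP libraries (blue). Numbers are replicates, and dots with bars are mean and SD over 5 libraries. Ldb2 lay at 43.4 CPM or above in the NG2 group and at 40.7 CPM or below in the GFAP group, while Ldb1 and Lmo3 had nearly equal means.

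The mean level of Ldb2 was 60.2 CPM in NG2 libraries and 33.6 CPM in GFAP libraries. Genes annotated inside Ldb2 had a lower summed level. There were 11 of them, 9 on the strand of Ldb2, and 9 of the 11 had enough reads to be tested. Their summed level was 18.03 ± 4.13 CPM in the NG2 libraries and 12.6 ± 4.33 CPM in GFAP libraries (mean ± SD of 5 libraries each), and the range of 12.7 to 24.0 CPM in NG2 overlapped that of 5.15 to 15.8 CPM in GFAP. E030026E10Rik, with the most reads, lay at a log2 fold change of 0.34 (SE 0.33). Gm43507, on the opposite strand, lay at 1.34 (SE 0.51). By edgeR 0 of the 9 passed, with Benjamini-Hochberg adjusted p from 0.303 to 0.975, and 3 of the 9 had an unadjusted p below 0.05, against 12.8% of all genes tested. Gm43508 was the 1 gene of the 9 whose groups did not overlap, against 3.28% of all genes tested, at a log2 fold change of 0.82 (SE 0.35). Gm43509 and Gm3364 had negative log2 fold changes of -0.78 (SE 0.72) and -0.71 (SE 0.46). These 5 genes were chosen after their values were seen. What they contribute to the reads of Ldb2 was not tested.

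Of the LIM-only genes, none passed the threshold over all genes tested, although Lmo1, Lmo2 and Lmo4 had positive fold changes, and 1 of the 4, Lmo1, had an unadjusted p below 0.05, against 12.8% of all genes tested. DESeq2 gave an adjusted p to 14278 genes, and its share of 2.29%, here and below, is over these. By DESeq2 (2.29%) and by limma on FPKM with 0.1 added (0.0741% of all genes tested) 0 of the 4 passed. By voom (8.9%) 1 of the 4, Lmo1, passed. All 6 family members passed the expression filter, and 1 of 6, Ldb2, was past the adjusted p of 0.05, against 0.148% of the 16187 genes tested (12 higher and 12 lower by edgeR). Nothing is read from that share, since the family was chosen by it. Ldb2 was not past the threshold in 12 of 20 alternatives, among them leaving out any 1 library other than NG2 replicate 5. Leaving out 1 library moved the counts over all genes both ways. They were 70 higher and 47 lower without NG2 replicate 5 and 13 higher and 9 lower without NG2 replicate 1. Without NG2 replicate 4 they were 6 higher and 6 lower, and without any of the other 7 libraries 3 to 4 higher and 0 to 2 lower. Values without overlap between the groups were found for Ldb2 and Lmo2, or 2 of 6, against 3.28% of all tested genes. Nothing is read from this share either, since it holds Ldb2. The median log2 fold change of all tested genes was -0.0097, and 48.5% were positive.

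Lmo1, first known as a T cell oncogene and expressed in the embryonic nervous system, was at 185, 233, 294, 230.1 and 218 CPM in NG2 replicates 1 to 5 and at 196, 151, 190.3, 175 and 188 CPM in GFAP replicates 1 to 5. The groups overlapped, with NG2 replicate 1 below 3 of the GFAP libraries. The means were 232 ± 39.5 CPM in NG2 libraries, against 179.8 ± 18.02 CPM in GFAP libraries (mean ± SD of 5 libraries each). The log2 fold change was 0.37 (SE 0.12, edgeR, Benjamini-Hochberg adjusted p = 0.242). It passed by voom with sample weights (0.31, adjusted p = 0.0277), the 1 of 20 alternatives in which it did. Voom passed 8.9% of all tested genes, against 0.148% by edgeR. It gave NG2 replicate 4 a weight of 6.3, against 0.17 to 0.897 for the other NG2 libraries and 0.349 to 2.02 for the GFAP libraries. Every voom value and count given here therefore rests, on the NG2 side, mostly on 1 library.

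Lmo2, a scaffold of transcription complexes in blood and endothelial cells, was the lowest of the family, with 88 to 109 reads in each NG2 library and 52 to 95 reads in each GFAP library. Its level was 6.48, 7.44, 6.12, 5.90 and 6.14 CPM in NG2 replicates 1 to 5 and 5.79, 4.27, 5.16, 5.53 and 3.54 CPM in GFAP replicates 1 to 5. The groups did not overlap, though NG2 replicate 4 lay close to GFAP replicate 1, and the log2 fold change of 0.40 (SE 0.21) did not pass (edgeR, Benjamini-Hochberg adjusted p = 0.433). Of the 10 endothelial markers, 7 were tested, 0 passed by edgeR and 0 were at 0 reads in all libraries. Their summed level was 2.14 to 26.8 CPM in the NG2 libraries and 5.65 to 31.8 CPM in GFAP libraries. NG2 replicate 5 had the lowest endothelial sum, 2.14 CPM, and 6.14 CPM of Lmo2. NG2 replicate 4 had the highest endothelial sum of its group, 26.8 CPM, and the lowest Lmo2, 5.90 CPM. In the GFAP group, replicate 1 was highest in both, at 31.8 CPM and 5.79 CPM of Lmo2. GFAP replicate 5 was lowest in both, at 5.65 CPM and 3.54 CPM of Lmo2. The 8 erythroid markers, globin genes among them, summed to 247 to 506 CPM in the NG2 libraries and to 244 to 445 CPM in GFAP libraries. The 10 microglia markers summed to 26.3 to 343 CPM in the NG2 libraries and to 41.4 to 160 CPM in GFAP libraries. Their part in the reads of Lmo2 was not tested.

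Lmo4, known from cortical area patterning, had 27.0, 40.6, 30.5, 22.8 and 49.7 CPM in NG2 replicates 1 to 5 and 25.7, 23.7, 33.2, 28.3 and 27.8 CPM in GFAP replicates 1 to 5. NG2 replicates 5 and 2 were high, and the other 3 NG2 libraries lay within or just under the range of the GFAP libraries. The log2 fold change of 0.30 (SE 0.19) did not pass (edgeR, Benjamini-Hochberg adjusted p = 0.537). It was 0.13 without NG2 replicate 5, and -0.18 by voom. Voom gave NG2 replicate 5 a weight of 0.17 and NG2 replicate 4, the lowest in Lmo4, a weight of 6.3. The effect of these weights on the value was not tested.

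Lmo3, known in human as an oncogene of neuroblastoma, had 54.9, 38.8, 42.4, 50.9 and 45.3 CPM in NG2 replicates 1 to 5 and 54.5, 60.9, 41.7, 38.5 and 35.2 CPM in GFAP replicates 1 to 5. The GFAP range contained the whole NG2 range. The log2 fold change was 0.0093 (SE 0.16, edgeR, Benjamini-Hochberg adjusted p = 0.988). Its sign turned under 6 of 20 alternatives, among them scaling by library size alone.

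Spread between libraries differed from member to member. The coefficient of variation of Lmo4 was 32.0% among NG2 libraries and 12.7% among GFAP libraries. For Lmo3 it was 13.96% among NG2 libraries and 23.9% among GFAP libraries. Ldb1 varied least over all 10 libraries, by 9.92%, and Ldb2 varied most, by 35.6%, with the group difference in it. Among the 10097 tested genes with a mean between those of Lmo2 and Lmo1, the median was 16.1% among NG2 libraries and 12.1% among GFAP libraries.

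Levels per length put Lmo1 far above the rest. By deposited FPKM, a scale on which genes of different length can be compared, Lmo1 stood at 149 ± 25.4 FPKM in the NG2 libraries and 114 ± 11.2 FPKM in the GFAP libraries (mean ± SD of 5 libraries each). Ldb1 followed with 36.3 ± 3.71 FPKM in the NG2 libraries and 36.1 ± 3.84 FPKM in the GFAP libraries, then Ldb2 with 17.95 ± 3.83 FPKM in NG2 libraries, against 9.91 ± 1.29 FPKM in the GFAP libraries. Lmo3 had 9.00 ± 1.26 FPKM in NG2 libraries, against 8.86 ± 2.12 FPKM in the GFAP libraries. Lmo4 had 9.61 ± 3.05 FPKM in NG2 libraries, against 7.75 ± 0.993 FPKM in the GFAP libraries. Lmo2 came last, at 2.95 ± 0.285 FPKM in NG2 libraries, against 2.21 ± 0.424 FPKM in the GFAP libraries.

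Neighbours in this order, which came from the means of the same libraries, were compared within each library. The 2 pairs that hold Ldb2 are given as a description, without a test. The log2 FPKM ratio (with 0.1 added to each value) was 1.84 ± 0.23 for Lmo1 to Ldb1 and 1.70 ± 0.35 for Lmo4 to Lmo2 (SD, n = 10 libraries), each positive in 10 of 10 libraries. For each of these pairs the two-sided exact permutation test over all sign flips of the libraries gave p = 0.00195, the smallest it can give. After Benjamini-Hochberg adjustment over all 5 neighbour pairs, the 2 with Ldb2 counted in, this p was 0.00326. Since the order was taken from the same libraries, these p-values add little to the ratios. The ratio of Ldb1 to Ldb2 was 1.44 ± 0.49 and positive in 10 of 10 libraries. Ldb2 lay above Lmo3 in 9 of 10 libraries, with a ratio of 0.58 ± 0.56 over all of them. Split by population, the ratio was 0.97 ± 0.44 in the NG2 libraries and 0.18 ± 0.35 in the GFAP libraries (mean ± SD of 5 libraries each). Lmo3 and Lmo4 did not differ beyond their spread, at 0.060 ± 0.52, with Lmo3 higher in 4 of 10 libraries (exact permutation p = 0.711, adjusted 0.711).

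**Figure D2:**
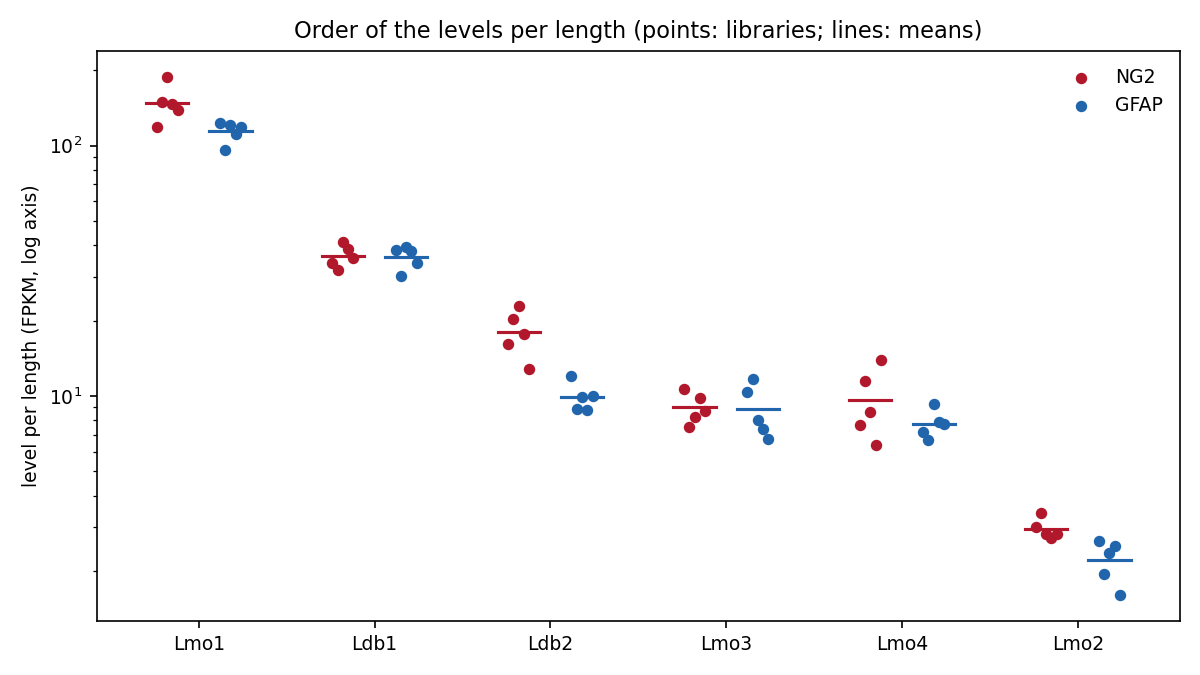
Level per length of each gene (deposited FPKM, log axis), ordered by the mean over 10 libraries, in NG2 libraries (red) and GFAP libraries (blue). Points are libraries and lines are group means. Lmo1 lay at 96.1 FPKM or above in every library and Lmo2 at 3.42 FPKM or below, while Lmo3 and Lmo4 overlapped.

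Lmo1 transcripts made up most of the LMO level. They were 87.1% ± 2.56 of the summed FPKM of Lmo1 to Lmo4 in the NG2 libraries and 85.8% ± 2.01 in the GFAP libraries (mean ± SD of 5 libraries each). Lmo4 gave 5.71% ± 1.91 in the NG2 and 5.83% ± 0.599 in the GFAP libraries, and Lmo3 gave 5.43% ± 1.44 in the NG2 and 6.75% ± 2.04 in the GFAP libraries. Lmo2 gave 1.76% ± 0.307 in the NG2 and 1.66% ± 0.289 in the GFAP libraries. The summed LMO level was 2.80 to 3.40 times the summed LDB level in the NG2 libraries and 2.75 to 3.06 times in the GFAP libraries, and these ranges overlapped. Transcript ratios carry the error of the gene length used for FPKM and say nothing of protein.

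Inside the populations, Lmo1 went with both cofactors more than with the other LMO genes by value, but no pair passed the adjusted threshold. With the group means removed, log2 CPM of Lmo1 and Ldb2 had a Pearson r of 0.71 (permutation p = 0.0465, adjusted 0.348) and a Spearman rho of 0.81 (permutation p = 0.0112, adjusted 0.167) over 10 libraries. Without the 2 libraries farthest from the median of Lmo1, r was 0.63. Lmo1 and Ldb1 had r = 0.69 (permutation p = 0.0348, adjusted 0.348) and rho = 0.73 (permutation p = 0.0267, adjusted 0.200), with r = 0.64 without the 2 farthest libraries. Lmo3 had negative values with Lmo1 (r = -0.50, permutation p = 0.117, adjusted 0.439, rho = -0.36, permutation p = 0.319, adjusted 0.797, r = -0.45 without the 2 farthest libraries and -0.29 without GFAP replicate 2) and with Lmo4 (r = -0.51, permutation p = 0.0749, adjusted 0.375, rho = -0.53, permutation p = 0.0813, adjusted 0.406, r = -0.47 without the 2 farthest libraries). The p-values were adjusted over the 15 pairs by Benjamini-Hochberg, and 0 of 15 passed.

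**Figure D3:**
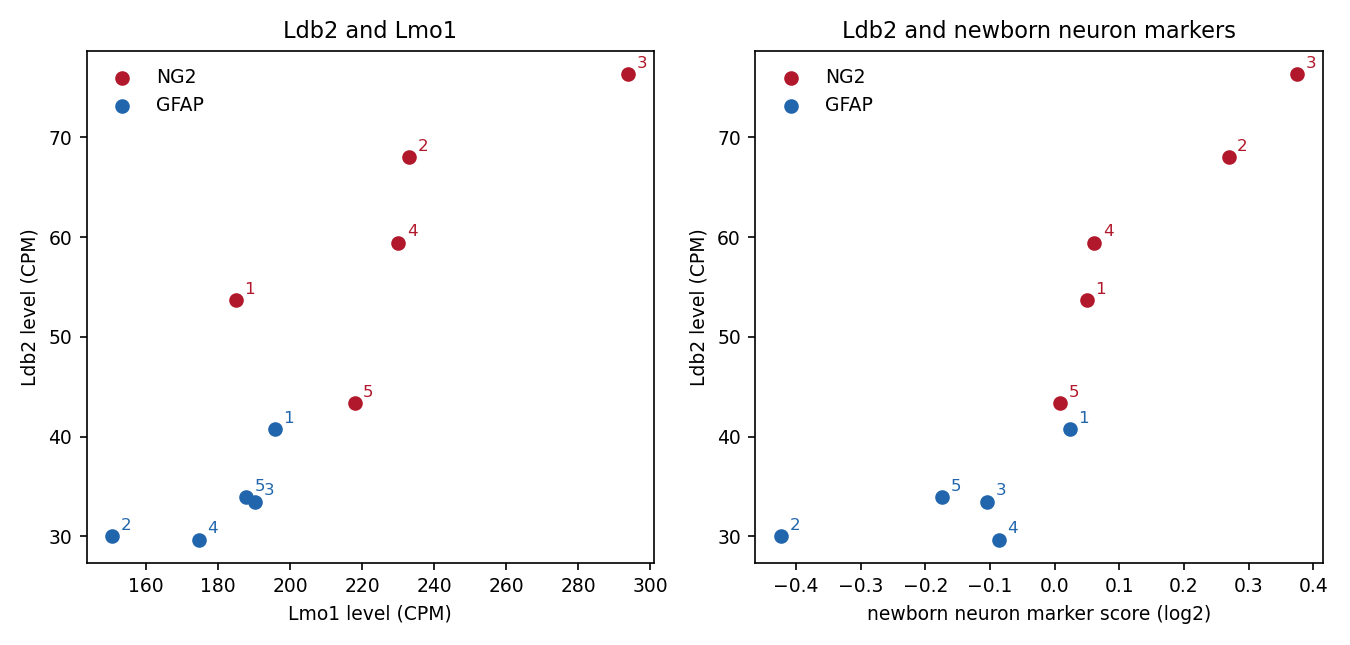
Ldb2 level (CPM, vertical axes) against Lmo1 level in CPM (left) and against the newborn neuron marker score (right, mean log2 difference from the gene's own mean), in NG2 libraries (red) and GFAP libraries (blue), numbered by replicate. NG2 replicate 3 was highest on all axes, with 76.4 CPM of Ldb2 and 294 CPM of Lmo1, and GFAP replicate 2 had the lowest Lmo1 level, 151 CPM.

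Genes most like each member over the 10 libraries were found among 10459 protein-coding genes with a mean of at least 5 CPM, by the Pearson correlation of log2 CPM, given as a description without a test. These points share the depth and the cell mixture of each library. Lmo1 was most like Dbndd1 (0.97), the stathmin Stmn3 (0.96), a microtubule regulator of neurons, and Ttc9b (0.96). Ldb2 was most like Ttll1 (0.97), a tubulin polyglutamylase, Cplx1 (0.97), a complexin of neurotransmitter release, and Morn4 (0.96), and these values were 0.94, 0.88 and 0.86 with the group means removed. Lmo2 was most like Diras1 (0.95), the kinase Stk32b (0.94) and the neurofilament Nefl (0.91). Lmo3 was most like the lipoprotein lipase Lpl (0.87), Phf19 (0.87) and Hpcal1 (0.84). Lmo4 was most like Vapb (0.94), Fbxl17 (0.93) and Inpp5k (0.93). Ldb1 was most like Nat8l (0.92), the thyroid hormone receptor Thra (0.87) and the kinase Nuak1 (0.87).

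Among the LIM homeodomain factors, the DNA-binding partners of LDB proteins, 5 of 12 were tested. Against 0.148% of all genes past the threshold in either direction, 0 rose and 1 fell by edgeR. That gene, Lhx9, stood at 2.36 ± 0.915 CPM in NG2 libraries, against 8.18 ± 2.79 CPM in GFAP libraries (mean ± SD of 5 libraries each), with a log2 fold change of -1.79 (SE 0.32, Benjamini-Hochberg adjusted p = 0.0429). In 12 of 20 alternatives 0 of the list passed, among them leaving out any 1 library other than NG2 replicate 4 or 5. Lhx2, a selector of cortical identity and the most abundant factor of the list, stood at 345 ± 10.5 CPM in NG2 libraries, against 437 ± 23.9 CPM in GFAP libraries, with a log2 fold change of -0.34 (SE 0.078, edgeR adjusted p = 0.122), and was named after its values were seen. The median of the 5 was -0.37. Of the 5, 3 had an unadjusted p below 0.05 by edgeR (12.8% of all genes). By DESeq2 2 passed (2.29%), by limma on FPKM 0 (0.0741%) and by voom 3 (8.9%). The summed level of all 12 was 353 to 384 CPM in the NG2 libraries and 428 to 507 CPM in GFAP libraries, without overlap. Most of this sum was Lhx2, so it says little of the other factors. Singly, Lhx2 and Lhx9 had no overlap between the groups, against 3.28% of all tested genes, while Lhx5, Lhx6 and Isl1 overlapped.

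Of the partners of LMO and LDB proteins, 12 of 17 were tested and 0 passed in either direction by edgeR, with 2 positive and 10 negative fold changes and a median of -0.071. Over all genes tested, 12.8% had an unadjusted p below 0.05 by edgeR, and 0.0741% passed by limma on FPKM (with 0.1 added) and 8.9% by voom. By DESeq2 2.29% of the genes with an adjusted p passed. Of the 12 partners, 4 had an unadjusted p below 0.05, and 0 passed by DESeq2, 0 by limma on FPKM and 2 by voom. The single-stranded DNA binding proteins Ssbp2, Ssbp3 and Ssbp4, which bind LDB proteins and stabilise them, had log2 fold changes of -0.0050 (SE 0.091), 0.052 (SE 0.095) and -0.0048 (SE 0.13). Rlim, a ubiquitin ligase of LDB proteins, was at -0.24 (SE 0.11). These 4 were named by their role after their values were seen. Tcf4, an E protein that pairs with bHLH factors, was at 1386 ± 147 CPM in NG2 libraries, against 1540 ± 202 CPM in GFAP libraries, and the proneural factor Neurog2 at 508 ± 25.1 CPM in NG2 libraries, against 586 ± 89.5 CPM in GFAP libraries (mean ± SD of 5 libraries each). Neither passed (edgeR, Benjamini-Hochberg adjusted p = 0.609 and 0.424).

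**Figure D4:**
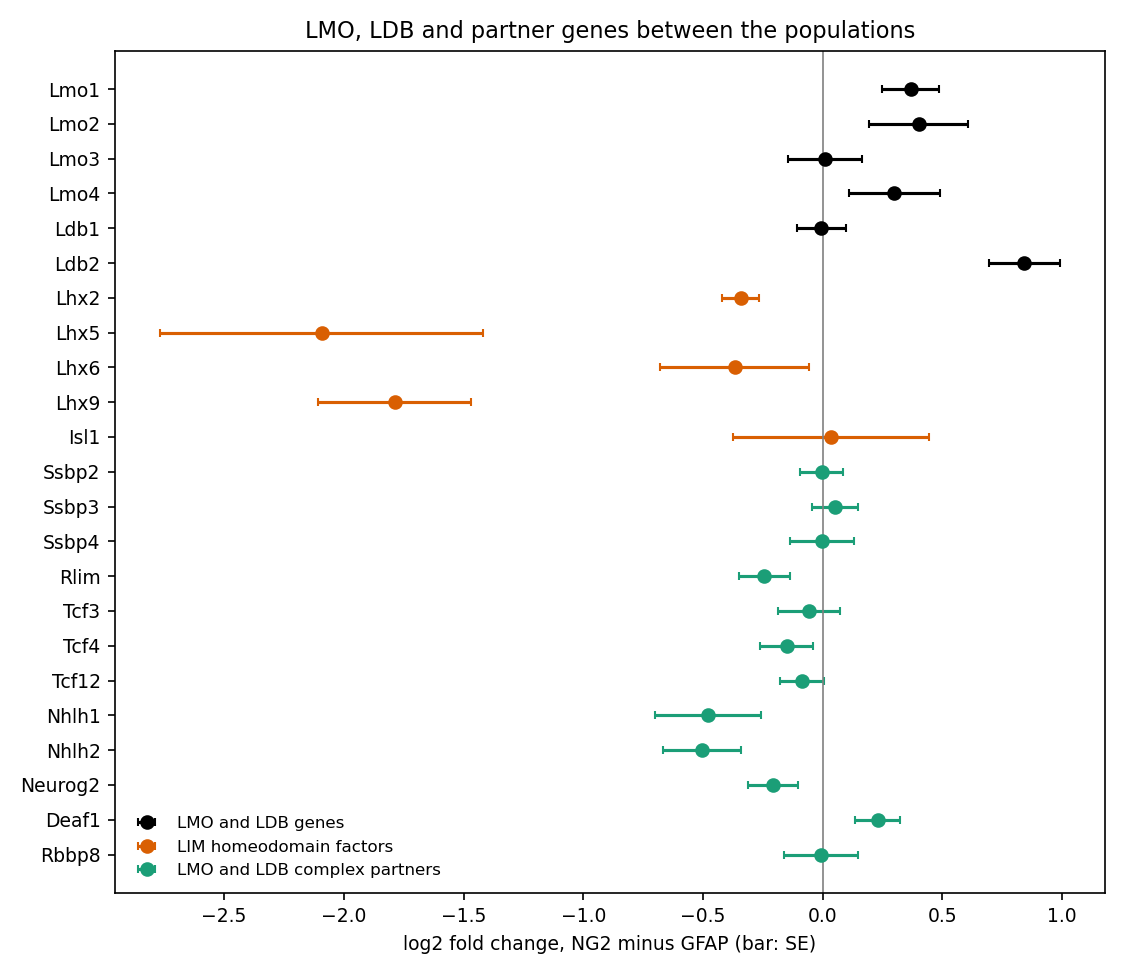
Log2 fold change of NG2 minus GFAP with its standard error from edgeR (horizontal axis) for the 6 LMO and LDB genes (black), the 5 tested LIM homeodomain factors (orange) and the 12 tested partners (green). Ldb2 had the highest value shown, 0.84, and Lhx5 and Lhx9 the lowest, -2.09 and -1.79.

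Other genes with LIM domains, most of them cytoskeletal, numbered 40 tested of 43. By edgeR 0 passed, 19 were positive and 21 negative, and the median was -0.035. Of the 40, 7 had an unadjusted p below 0.05 (12.8% of all genes), 2 passed by DESeq2 (2.29%), 0 by limma on FPKM (0.0741%) and 5 by voom (8.9%). The most abundant were Limd2 (286 ± 24.3 CPM in NG2 libraries, against 267 ± 23.4 CPM in GFAP libraries) and Crip2 (284 ± 45.4 CPM in NG2 libraries, against 233 ± 11.4 CPM in GFAP libraries, SD, n = 5 each). Their Benjamini-Hochberg adjusted p by edgeR was 0.699 and 0.298.

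Projection neuron identity factors, the setting in which Ldb2 and Lmo4 are best known, did not pass either. All 14 genes analysed were tested, 0 passed by edgeR, 9 were positive and 5 negative, and the median was 0.034. Of the 14, 3 had an unadjusted p below 0.05 (12.8% of all genes), 0 passed by DESeq2 (2.29%), 0 by limma on FPKM (0.0741%) and 2 by voom (8.9%). Sox5, a factor of deep-layer neurons, stood at 437 ± 12.1 CPM in NG2 libraries, against 401 ± 74.4 CPM in GFAP libraries. Cux1, an upper-layer factor, stood at 233 ± 24.5 CPM in NG2 libraries, against 236 ± 6.33 CPM in GFAP libraries (mean ± SD of 5 libraries each).

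Markers of cell types are set beside the family here. Newborn neuron markers had 10 positive and 1 negative fold change among 11 tested, 0 passed by edgeR, and their median was 0.35. Of the 11, 6 had an unadjusted p below 0.05 (12.8% of all genes), 3 passed by DESeq2 (2.29%), 0 by limma on FPKM (0.0741%) and 3 by voom (8.9%). Neurod6 stood at 1968 ± 428 CPM in NG2 libraries, against 1646 ± 212 CPM in GFAP libraries, and Tubb3 at 1640 ± 182.5 CPM in NG2 libraries, against 1289 ± 95.9 CPM in GFAP libraries (mean ± SD of 5 libraries each). The summed markers were at 5712, 6553, 7354, 6129 and 5275 CPM in NG2 replicates 1 to 5 and at 5454, 4293, 5360, 5195 and 5554 CPM in GFAP replicates 1 to 5. Ranked by these sums, the NG2 libraries had the same order as by Ldb2, while the GFAP libraries did not, with replicate 1 highest and replicate 4 lowest in Ldb2 but replicate 5 highest and replicate 2 lowest in the sums. NG2 replicates 3 and 2, the highest in Ldb2, had the lowest sums of radial glia markers (1306 CPM or less, against 1604 to 1690 CPM in the other NG2 libraries) and of interneuron markers (119 and 151 CPM, against 320 to 362 CPM in the other NG2 libraries). In the GFAP group, replicates 4 and 1, lowest and highest in Ldb2, had 1539 and 1556 CPM of summed radial glia markers. The other GFAP libraries had 1643 to 2198 CPM. GFAP replicates 4 and 1 had 274 and 335 CPM of summed interneuron markers, within the range of 224 to 345 CPM of the others. GFAP replicate 2, lowest in Lmo1 and Ldb1, was lowest in newborn neuron markers. The part of these cell types in the values of Ldb2 and Lmo1 was not tested.

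The other marker lists had 0 members past the threshold by edgeR. Radial glia markers had 9 negative fold changes of 10 tested (median -0.28). Vim was at 342 ± 71.2 CPM in NG2 libraries, against 403 ± 66.6 CPM in GFAP libraries, and did not pass (edgeR, Benjamini-Hochberg adjusted p = 0.534). Glul, named after its values were seen, was the positive 1, at a log2 fold change of 0.24 (SE 0.12). Intermediate progenitor markers had 6 negative of 8 (median -0.14), and interneuron markers had 5 negative of 9 (median -0.053). Cajal-Retzius markers had 6 negative of 6 (median -0.69), with Reln at 13.99 ± 9.27 CPM in NG2 libraries, against 27.5 ± 11.8 CPM in GFAP libraries, and meningeal fibroblast markers had 6 negative of 8 (median -0.66). Endothelial markers had 5 negative of 7 (median -0.28) and erythroid markers 5 positive of 7 (median 0.064). Microglia markers had 9 positive of 9 (median 0.95), with C1qb at 45.4 ± 33.8 CPM in NG2 libraries, against 22.3 ± 14.6 CPM in GFAP libraries (mean ± SD of 5 libraries each). Beside 12.8% of all genes, an unadjusted p below 0.05 was found for 4 radial glia, 3 intermediate progenitor, 1 interneuron, 3 Cajal-Retzius and 1 meningeal marker, and for 0 of the other 3 lists. By DESeq2 (2.29% of the genes with an adjusted p) 1 radial glia and 2 intermediate progenitor markers passed and 0 of the rest. By voom (8.9% of all genes) 1 radial glia, 2 intermediate progenitor, 3 Cajal-Retzius and 1 erythroid marker passed, and by limma on FPKM (0.0741% of all genes) 0 did.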

How the data were processed

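Total RNA from the sorted cells was isolated with a kit for small inputs, amplified with SMARTer chemistry, enriched for poly(A) and sequenced as paired ends, per the labels' protocols. The deposited counts are whole read counts per gene and library, and FPKM values, which scale by gene length and depth, were deposited beside them, per the file headers. The submitters' processing notes name HISAT2, featureCounts 1.5.0-p3 and GRCm38.p6. The authors' deposited comparison gives a mean signal per group, a log2 fold change and a p-value with an adjusted p-value, and its tool is not given in the sources used here. Without molecular identifiers, amplification adds error to low counts.

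Counts were tested with edgeR 4.0.16 in R 4.3.3 (quasi-likelihood, TMM, default filter by group, Benjamini-Hochberg over all tested genes, threshold 0.05), which was tested on simulated data. SE is the fold change divided by the root of the F statistic. CPM uses the TMM factors, and log2 CPM a prior count of 2. Correlations used 100000 permutations within groups. Unadjusted p was below 0.05 for 2069 genes. Alternatives used DESeq2 1.42.0 and limma 3.58.1.

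The members and lists were chosen with earlier results of these data known. Named genes are the members, Cspg4, Gfap, up to 4 members of each list past the threshold or else the 2 with the highest mean CPM, and the 3 genes most like each member. Others are given as chosen after their values were seen. One listed gene was not analysed here. The values of 1 gene that the rule names are not reported here.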

Additional observations from a re-analysis of the deposited data

Results flagged for a closer look

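Among 38 combinations of group and measure (6 genes and 13 marker or partner lists), 3 had 1 library set apart from the other 4, measured as its gap to the nearest one over the range of the group. Chance gives about 1 in 20. None was a member of the family. In the GFAP group, replicate 2 had 4293 CPM of summed newborn neuron markers, against 5195 to 5554 CPM in the others, and 2198 CPM of summed radial glia markers, against 1539 to 1666 CPM in the others. GFAP replicate 1 had 31.8 CPM of summed endothelial markers, against 5.65 to 11.6 CPM in the others. Without GFAP replicate 2 the log2 fold change of Ldb2 was 0.81, and without GFAP replicate 1 that of Lmo2 was 0.47.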

How the results depend on the processing

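Depth limits Lmo2 most, and amplification without molecular identifiers adds error that counts do not show. Over 20 alternatives the log2 fold change was 0.75 to 0.94 for Ldb2, 0.27 to 0.44 for Lmo1, 0.26 to 0.47 for Lmo2, -0.068 to 0.19 for Lmo3, -0.18 to 0.42 for Lmo4 and -0.062 to 0.042 for Ldb1. The Ldb2 values are a description, since the family was chosen by this difference, with 0.78 and 0.83 on FPKM with 1 and 0.1 added. Lmo1 passed by voom (0.31). Lmo4 was -0.18 by voom, and Lmo3 was -0.027 with library size only. Ldb1 was 0.0048 with DESeq2 size factors, 0.0076 by DESeq2, 0.0080 and 0.0083 on FPKM with 1 and 0.1 added, and 0.0047 by voom. The causes were not tested.

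Genes higher and lower in NG2 numbered 199 and 128 by DESeq2, 58 and 37 with no filter, and 584 and 857 by voom, against 12 and 12. On FPKM 3 were lower with either pseudocount. Leaving out NG2 replicate 5 and GFAP replicate 2 together, chosen after seeing the data, gave 109 and 154, with Ldb2 at 0.90, and 2 radial glia markers and 1 each of the other LIM genes, projection neuron, newborn neuron, intermediate progenitor, Cajal-Retzius and erythroid lists passed. LIM homeodomain factors past the threshold numbered 2 by DESeq2, 3 by voom and 0 on FPKM or with at least 5 CPM. Other LIM genes numbered 2 by DESeq2 and 5 by voom, partners 2 and projection neuron factors 2 by voom, and newborn neuron markers 3 by DESeq2 and voom and 2 with no filter. Radial glia markers numbered 1 by DESeq2 and voom. Intermediate progenitor markers numbered 2 by DESeq2 and voom, and 1 with library size only or at least 5 CPM. By voom 3 Cajal-Retzius markers and 1 erythroid marker passed.

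With the replicate number as a block, Ldb2 was at 0.83, 1 gene was higher, 0 were lower and 0 LIM homeodomain factors passed. Libraries of the same number had correlations of -0.021 to 0.083 between their deviations from the group means, against -0.212 to 0.237 for different numbers. No pairing by number is seen in these values. They cannot exclude one, since its effect may be smaller than the other differences between libraries.

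Leaving out each library in turn gave 3 to 70 genes higher and 0 to 47 lower, with the most without NG2 replicate 5. Ldb2 ranged from 0.75 to 0.94. Lmo1 ranged from 0.27 to 0.44, Lmo2 from 0.31 to 0.47, Lmo3 from -0.068 to 0.13, Lmo4 from 0.13 to 0.42 and Ldb1 from -0.062 to 0.042. LIM homeodomain factors, newborn neuron markers and other LIM genes past the threshold numbered 0 to 1 each. The ratio of Lmo3 to Lmo4 ranged from -0.023 to 0.14.

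With group means kept, r was 0.86 for Lmo1 and Ldb2 and 0.19 for Lmo4 and Ldb2, values that hold the Ldb2 group difference by which the family was chosen and are given without a test. Without 1 library each, r ranged from 0.54 to 0.85 for Lmo1 and Ldb2, from 0.57 to 0.81 for Lmo1 and Ldb1, from -0.67 to -0.29 for Lmo1 and Lmo3, from -0.67 to -0.44 for Lmo3 and Lmo4, from -0.073 to 0.27 for Lmo1 and Lmo2, from -0.084 to 0.32 for Lmo1 and Lmo4, from -0.53 to 0.34 for Lmo2 and Lmo3, from -0.47 to 0.29 for Lmo3 and Ldb1, from -0.37 to 0.014 for Lmo3 and Ldb2, from -0.32 to 0.11 for Lmo4 and Ldb1 and from -0.46 to 0.33 for Lmo4 and Ldb2.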
